A study of Canis lupus familiaris with 2 samples.

Results

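Notch signalling passes information between touching cells. A ligand of the Jagged or Delta-like type on the surface of a cell binds a Notch receptor on its neighbour, the receptor is cut by an ADAM protease and then by gamma-secretase, and the freed intracellular domain enters the nucleus, where it joins the DNA-binding protein RBPJ and a Mastermind coactivator and switches on genes such as those of the HES and HEY repressors. In the kidney the pathway is known for its part in the patterning of the nephron and in the choice between principal and intercalated cells of the collecting duct, and because it acts through cell contact it is often studied in epithelial sheets. The genes described here were 10 Notch components, namely the receptors NOTCH1, NOTCH2 and NOTCH3, the ligands JAG1, JAG2 and DLL1, the nuclear factor RBPJ, and the target genes HES1, HEY1 and NRARP. They were taken from the deposited expression files by gene symbol, out of 23510 features in all. Of the 10, 8 were listed under their symbol. RBPJ was listed under its NCBI gene ID, as LOC479122, and was recognised through RefSeq's pairing of that ID with the symbol. HES1 was found under neither its symbol nor its gene ID and was not analysed here, which leaves 9 genes.

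The RNA came from MDCK cells, an established dog kidney epithelial line that forms a columnar sheet on a semipermeable membrane. In the 2-cm-high-medium group the cells carried only the ordinary height of medium and served as the unloaded culture, and in the 50-cm-high-medium group a 50-cm column of medium stood on the same kind of membrane in a two-chamber device, so that the medium height set the static pressure. Both groups were at day 3 of culture, no transgene or drug is named for either, and each was 1 culture and 1 library, called the 2-cm culture and the 50-cm culture here. None of the values therefore has a replicate, no p-value can be given, and every ratio below compares these 2 libraries. The sheet grows more slowly under pressure in this system, and the cell number of the sequenced cultures was not given, so that a difference in cell density and a difference in pressure cannot be told apart, and neither can fewer cells of a kind and less RNA per cell.

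Expression was given as FPKM, a measure of fragments that takes exon length and library size into account, which allows levels of different genes to be compared. Above 1 FPKM in both cultures were 11057 features, and their median ratio of 50-cm over 2-cm FPKM was 1.01. The number of reads per library was not given. The lowest values showed that the FPKM given by 1 read was 9.77% larger in the 50-cm culture. Among the kidney epithelial markers, KRT8 stood at 1641 FPKM in the 2-cm culture and 1561 in the 50-cm culture, and all 7 other markers of that list were expressed, although CDH16, the kidney-specific cadherin, was weak, with 1.96 and 0.676 FPKM. The leukocyte markers PTPRC and CD3E and the endothelial markers PECAM1, TEK and CLDN5 were listed at 0 in both cultures. The remaining leukocyte markers were low, CD14 at 4.82 and 3.77 FPKM being the highest, and no fibroblast or smooth muscle marker passed 0.247 FPKM.

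The Notch genes of the MDCK sheet formed a steep ladder of levels, with NOTCH2 and JAG1 at the top. NOTCH2 had 25.9 FPKM in the 2-cm culture and 22.8 FPKM in the 50-cm culture, and JAG1 had 16.8 and 20.3 FPKM. RBPJ (5.34 and 5.59 FPKM) and NOTCH1 (5.08 and 4.78 FPKM) followed. DLL1 (1.87 and 1.68 FPKM) and JAG2 (1.70 and 2.49 FPKM) lay just above 1 FPKM. NRARP (0.645 and 0.744 FPKM), HEY1 (0.632 and 0.466 FPKM) and NOTCH3 (0.763 and 0.194 FPKM) lay below it in both cultures. The upper 4 genes kept their order between the cultures, whereas JAG2 passed DLL1 and NOTCH3 went from seventh to last. Without replicates it cannot be said which neighbours in this order differed beyond their spread. Set among all features, NOTCH2 was above 83.6% of them in the 2-cm culture and HEY1 above 49.3%, and 8385 features were listed at 0.

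**Figure D1:**
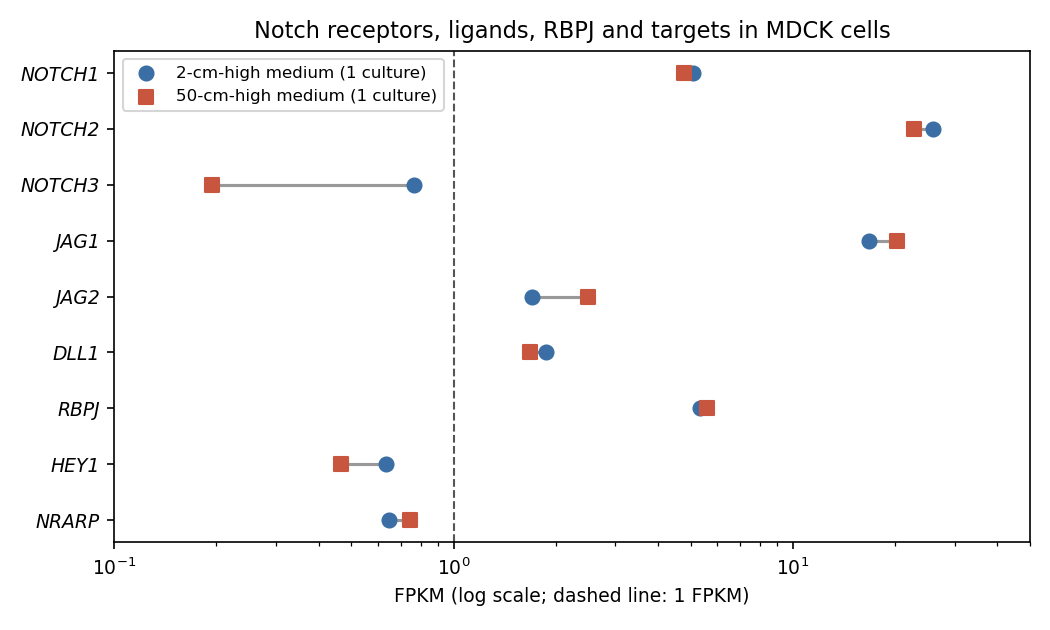
FPKM (horizontal log axis) of the 9 Notch genes with a row, 1 line per gene, with a circle for the 2-cm culture and a square for the 50-cm culture. The 2 marks lie close together for NOTCH1, RBPJ and DLL1, and the longest line is that of NOTCH3, from 0.763 to 0.194 FPKM, left of the dashed line at 1 FPKM.

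The comparison asked whether Notch components differed in RNA level between the unloaded and the pressure-loaded sheet. The study's methods asked for more than 1 FPKM in both cultures and a ratio past 2-fold. In the deposited values this rule gave fewer features than the number of changed genes that the study reports. A minimum of 0.1 FPKM gave that same number, so the stated minimum may not be the one used. Above 1 FPKM in both cultures, 6 Notch genes could be judged (NOTCH1, NOTCH2, JAG1, JAG2, DLL1 and RBPJ). Past 2-fold were 0 of these 6, against 185 of all 11057 features (1.67%). Past 1.5-fold there were again 0 of 6, against 7.19% of all features. In 50-cm-high medium 3 of the 6 were higher (JAG1, JAG2 and RBPJ) and 3 lower (NOTCH1, NOTCH2 and DLL1), against 52.6% of all features higher. With quantile normalization of the cultures NOTCH1 and DLL1 also came out above 0, and 5 of 6 were higher. The median log2 ratio of the 6 was -0.01, close to the median of 0.01 over all features. That median varied with level, at -0.09 for features with a mean between 1 and 10 FPKM and 0.05 for those above 10 FPKM. Over 6 genes, the counts in the deposited values lie near the shares of all features. No share of all features was computed with quantile normalization, so the 5 of 6 has none to be read against.

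The receptors are single-pass proteins that act both as the sensor at the surface and as the source of the nuclear fragment. NOTCH2 stood at 25.9 FPKM in the 2-cm culture and 22.8 FPKM in the 50-cm culture, a ratio of 0.882. This was the lowest ratio among the 6 genes above 1 FPKM, and 23.8% of all features above 1 FPKM had a lower one. Among the 500 features nearest to NOTCH2 in mean expression, 85 had a lower ratio, so the difference is of a size that many genes of this level showed. NOTCH1 stood at 5.08 and 4.78 FPKM, a ratio of 0.942 that came to 0.02 on the log2 scale, just above 0, with quantile normalization. Of the 500 features nearest to NOTCH1, 255 had a lower ratio and 245 a higher one. In both cultures NOTCH2 exceeded NOTCH1 about equally, by 5.10-fold and 4.78-fold, and supplied 81.5% and 82.1% of the summed receptor FPKM. The sum over NOTCH1, NOTCH2, NOTCH3 and NOTCH4 was 31.8 FPKM in the 2-cm culture and 27.8 FPKM in the 50-cm culture, a ratio of 0.875.

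NOTCH3, a receptor best known from the smooth muscle of vessels, had the ratio farthest from 1 among the 9 genes and was not counted under the minimum of 1 FPKM that the methods state, since it was below 1 FPKM in both cultures. It went from 0.763 FPKM in the 2-cm culture to 0.194 FPKM in the 50-cm culture, a ratio of 0.255 or 3.93-fold lower. If the minimum is lowered to 0.1 FPKM, NOTCH3 is counted and is the 1 Notch gene of 9 past 2-fold. In all, 730 of 13280 features (5.5%) were past 2-fold there, so whether NOTCH3 counts rests on the minimum. Since the lower minimum gave the number of changed genes that the study reports, NOTCH3 may be among those genes. Its log2 ratio of -1.97 was 2.55 times the scaled median absolute deviation among the 500 features nearest in expression (0.773 on the log2 scale), a spread across genes and not replicate error, and 13 of these 500 had a lower ratio. The size of the difference depended on how low values were treated, and with a pseudocount of 1 the log2 ratio was -0.56. The smooth muscle marker ACTA2 stood at 0.0569 and 0.187 FPKM and PDGFRB at 0.0186 and 0 FPKM. The part of smooth muscle in the NOTCH3 values was not tested. NOTCH4, the receptor of endothelium, was at 0.0497 FPKM in the 2-cm culture and was listed at 0 in the 50-cm culture.

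**Figure D2:**
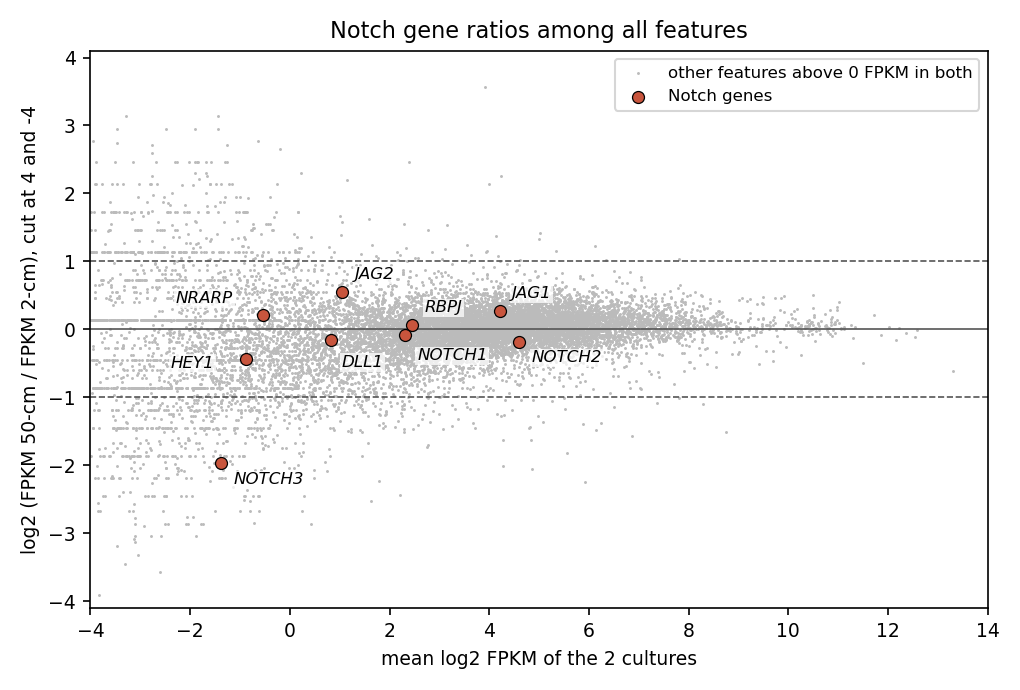
Log2 ratio of 50-cm over 2-cm FPKM (vertical axis) against mean log2 FPKM of both cultures (horizontal axis) for features above 0 in both (grey, without those left of the axis) and the 9 Notch genes (red), with dashed lines at 2-fold. The grey cloud widens towards low expression, 8 Notch genes lie within the dashed lines, and NOTCH3 lies below them at -1.97 in the wide part of the cloud.

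The ligands sit in the membrane of the sending cell. JAG1, the main ligand gene here, had 16.8 FPKM in the 2-cm culture and 20.3 FPKM in the 50-cm culture, a ratio of 1.21, which was higher than that of 85.8% of all features above 1 FPKM. Of the 500 features nearest in expression, 77 had a higher ratio. JAG2, the second Jagged ligand, had 1.70 and 2.49 FPKM, a ratio of 1.46, the highest of the 9 genes. For JAG2 97.5% of features above 1 FPKM had a lower ratio, and 25 of the 500 nearest had a higher one. Both Jagged genes were thus higher in the 50-cm culture, JAG1 by 0.27 and JAG2 by 0.55 on the log2 scale. Of the alternatives tried, only recentring and quantile normalization could have turned the direction of a gene. With these, JAG1 came to 0.26 and 0.24, and JAG2 to 0.53 and 0.76. A pseudocount of 1, which cannot change the direction, brought JAG2 to 0.37. JAG2 passed 1.5-fold with quantile normalization only.

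The Delta-like ligands were lower in the deposited values. DLL1 had 1.87 and 1.68 FPKM, a ratio of 0.897, which turned to 0.08 on the log2 scale with quantile normalization. Of the 500 features nearest to DLL1, 289 had a lower ratio and 211 a higher one, so DLL1 was not low for its level. DLL4, a Delta-like ligand best known from sprouting endothelium and not among the 10 genes, had 3.46 FPKM in the 2-cm culture and 1.79 FPKM in the 50-cm culture, a ratio of 0.517. Of the 500 features nearest to DLL4, 29 had a lower ratio. DLL3 was at 0.0483 FPKM and then listed at 0. The endothelial markers other than those at 0 were CDH5, KDR and ESAM, none above 0.277 FPKM, and the whole endothelial list summed to 0.622 FPKM in the 2-cm culture and 0.493 FPKM in the 50-cm culture. CDH5 was at 0.181 FPKM in the 2-cm culture and 0.0397 FPKM in the 50-cm culture, and KDR was at 0.277 and 0.228 FPKM. ESAM went the other way, from 0.164 to 0.225 FPKM. The part of these markers in the DLL4 values was not tested.

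The ligand pool as a whole was similar in size in both cultures, and the share of DLL4 in it differed most. The summed FPKM of JAG1, JAG2, DLL1, DLL3 and DLL4 was 23.9 in the 2-cm culture and 26.3 in the 50-cm culture, a ratio of 1.10. JAG1 supplied 70.3% of the sum in the 2-cm culture and 77.3% in the 50-cm culture, JAG2 7.13% and 9.50%, DLL1 7.84% and 6.40%, and DLL4 14.5% and 6.83%. DLL4 was thus the second ligand gene in the 2-cm culture and the third in the 50-cm culture, where JAG2 was above it. JAG1 exceeded DLL4 by 4.85-fold in the one culture and by 11.3-fold in the other. RNA shares of this kind do not give the amount of ligand at the cell surface.

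**Figure D3:**
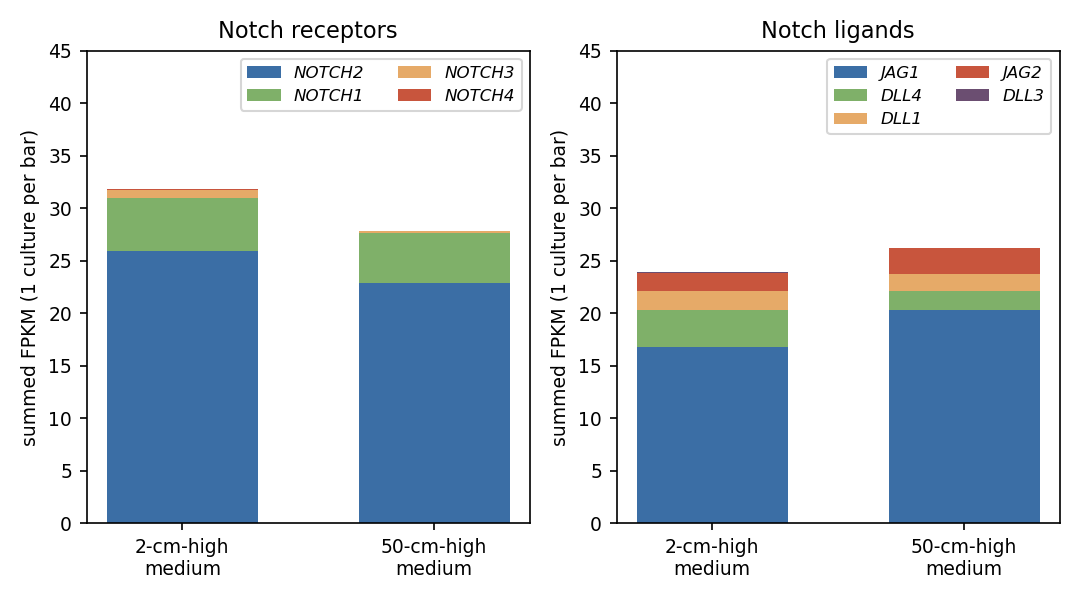
Summed FPKM (vertical axis, from 0) of the Notch receptors (left) and ligands (right) in the 2-cm culture and the 50-cm culture, 1 bar per culture, with 1 colour per gene. NOTCH2 fills 81.5% and 82.1% of the receptor bars, and JAG1 fills 70.3% and 77.3% of the ligand bars, with DLL4 taking 14.5% and 6.83%.

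RBPJ, the DNA-binding protein that recruits corepressors without Notch and the coactivator complex with it, had 5.34 FPKM in the 2-cm culture and 5.59 FPKM in the 50-cm culture. Its ratio of 1.05 lay in the middle of all features, 58.9% of which had a lower one.

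The target genes read out nuclear Notch, and both that could be measured were weak. HEY1, a bHLH repressor induced by Notch in many tissues, had 0.632 and 0.466 FPKM, a ratio of 0.737, and 209 of the 500 features nearest in expression had a lower ratio. NRARP, a small ankyrin-repeat protein that is induced by Notch and limits it, had 0.645 and 0.744 FPKM, a ratio of 1.15, and 127 of the 500 nearest had a higher ratio. Their log2 ratios, -0.44 and 0.20, had opposite signs, and each was smaller than the spread among features of its level, which was 0.712 and 0.694 on the log2 scale. Among their relatives, HEY2, HEYL, HES2, HES3, HES5, HES7 and HELT were listed at 0 in both cultures. HES4 and HES6 were above 1 FPKM. HES4 had 3.14 and 4.88 FPKM, a ratio of 1.55, and HES6, which is known to act against HES1, had 3.44 and 2.42 FPKM, a ratio of 0.703. HES6 was named after its value had been seen.

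The ratios of the lower genes carry a trace of whole reads, but not the number of reads behind a gene. Where whole reads were counted, a ratio equals that of 2 whole numbers times the 1.098 by which 1 read differed in FPKM. The ratio of NOTCH3 was, to within 0.0005%, that of 69 reads in the 2-cm culture to 16 in the 50-cm culture. The ratio of HEY1 was 67 to 45, that of DLL1 71 to 58, that of RBPJ 87 to 83, and that of NRARP 20 to 21. JAG2 lay at 3 to 4. These are the smallest pairs of at most 100 reads, and any multiple of a pair gives the same ratio, so they do not give the read numbers. Pairs up to each of these sizes cover at most 2.19% of the ratios nearby, the figure for RBPJ, and 0.329% for NOTCH3. NOTCH1, NOTCH2 and JAG1 lay at no such pair. Of the features with a mean between 0.1 and 1 FPKM, 63.0% lay at a pair, and between 10 and 100 FPKM 5.89% did.

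The other genes of the pathway were followed by role, in a list of 79 genes of which 76 had a row and 57 were above 1 FPKM in both cultures. Their median log2 ratio was 0.02, with 31 higher and 26 lower in the 50-cm culture (29 higher with quantile normalization or recentring). Of all features, 52.6% were higher. Past 2-fold was 1 of 57, CCND1, which was higher, against 0.389% of all features past 2-fold higher and 1.28% past 2-fold lower. Past 1.5-fold were 6 higher and 1 lower, against 2.13% and 5.06% of all features. Of these 7, 5 were in the group of other reported targets, described last, and without that group 2 of 47 remained, HES4 and DLL4. The medians of the role groups from ligand endocytosis to the nuclear corepressors lay between -0.18 and 0.10 on the log2 scale.

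The genes that make a ligand active, by ubiquitination and endocytosis in the sending cell, were lower for 4 of 5 above 1 FPKM. Over all features 52.6% were higher. None of the 5 was past 1.5-fold, against 7.19% of all features. Of the 5, the ubiquitin ligase MIB2 had the lowest ratio, from 6.63 to 4.90 FPKM (0.739), and the epsin EPN2 the highest, from 5.05 to 6.50 FPKM (1.29). Of the 5 glycosyltransferases above 1 FPKM, which add the sugars that tune receptor binding, the fringe genes RFNG, from 60.6 to 71.1 FPKM (1.17), and MFNG, from 1.32 to 1.22 FPKM (0.920, but 0.12 on the log2 scale with quantile normalization), were the extremes. LFNG, the third fringe gene, had 0.468 and 0.327 FPKM.

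Of the 8 genes for receptor cleavage above 1 FPKM, whose products release the intracellular domain, 3 were higher and 5 lower in the 50-cm culture (2 higher with quantile normalization). Over all features 52.6% were higher. None of the 8 was past 1.5-fold, against 7.19% of all features. ADAM10 had 55.5 and 53.1 FPKM and ADAM17 had 44.0 and 43.6 FPKM, both named after their values had been seen, and the gamma-secretase subunits PSEN2 (4.02 to 4.85 FPKM, ratio 1.21) and APH1B (4.49 to 3.83 FPKM, ratio 0.854) had the highest and the lowest ratio. Of the 8 turnover genes above 1 FPKM, NUMB, an endocytic inhibitor of Notch, had the lowest ratio, from 22.0 to 17.7 FPKM (0.805), and its relative NUMBL the highest, from 3.86 to 5.37 FPKM (1.39). The Deltex genes DTX1, from 0.362 to 0.164 FPKM (ratio 0.452), and DTX4, from 1.37 to 0.326 FPKM (0.238), were further apart but not above 1 FPKM in both cultures. DTX2, DTX3 and DTX3L, which were above 1 FPKM in both, had ratios of 1.08, 0.824 and 0.968. The Deltex genes were all named after their values had been seen. DTX1 is itself known as a Notch target in lymphocytes.

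Among the 6 coactivators of RBPJ above 1 FPKM, KAT2A, a histone acetyltransferase, had the highest ratio, from 22.1 to 28.3 FPKM (1.28), and the Mastermind gene MAML2 the lowest, from 5.40 to 4.84 FPKM (0.896). The 12 corepressors above 1 FPKM lay between 0.863, for the demethylase KDM5A (8.34 to 7.19 FPKM), and 1.08, for CTBP1 (29.6 to 32.0 FPKM), which was recognised by its gene ID.

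The 11 further genes grouped here as reported targets have been linked to Notch in other cells, and several of them answer to growth factor, Wnt or p53 signalling as well. Those above 1 FPKM had a median ratio of 1.42, against 1.01 over all features. The group was chosen with earlier results of these data known, so its median cannot serve as a test of Notch targets. Of the 10 above 1 FPKM, 9 were higher in the 50-cm culture, and 8 after recentring, where EPHB3 turned, against 52.6% of all features higher. CCND1, the G1 cyclin, had 45.7 FPKM in the 2-cm culture and 107 FPKM in the 50-cm culture, a ratio of 2.35. All of the 500 features nearest to CCND1 in expression had a lower ratio. CDKN1A, the p21 inhibitor of the cell cycle, had 51.0 and 88.6 FPKM (1.74), MYC 57.7 and 88.0 FPKM (1.53), BCL2, a survival gene, 4.34 and 6.73 FPKM (1.55), and PLAU, the urokinase gene, 31.0 and 47.4 FPKM (1.53). SOX9 was lower, from 34.0 to 30.3 FPKM (0.892). NOX1 was below 1 FPKM, at 0.150 and 0.0534 FPKM. HEY1 and NRARP, more closely tied to Notch, were below 1 FPKM, with ratios of 0.737 and 1.15, each within the spread at its level. HES4 and HES6, above 1 FPKM, had ratios of 1.55 and 0.703. The part of Notch in the values of the reported targets was not tested.

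**Figure D4:**
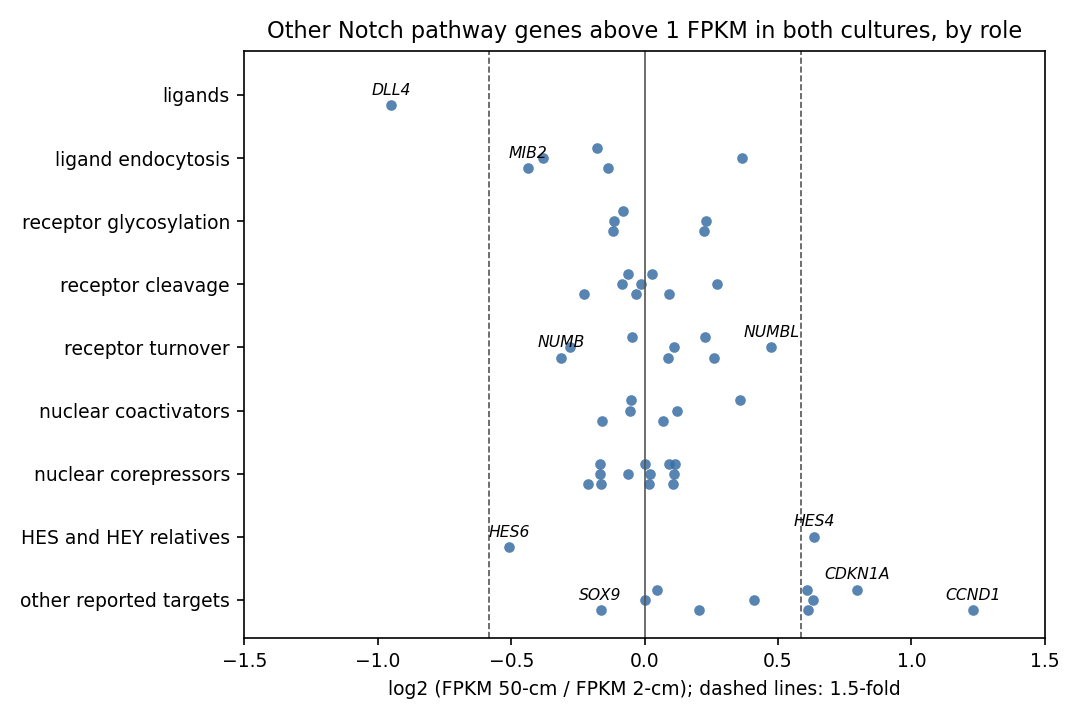
Log2 ratio of 50-cm over 2-cm FPKM (horizontal axis) of the 57 other pathway genes above 1 FPKM in both cultures, 1 point per gene, in rows by role, with dashed lines at 1.5-fold and small vertical offsets only to separate points. Points outside the dashed lines are DLL4 on the left and HES4 and 5 reported targets, among them CDKN1A and CCND1, on the right, while the rows from ligand endocytosis to nuclear corepressors lie within them.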

How the data were processed

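RNA sequencing of 2 MDCK cultures, 1 per medium height, was used. The authors made stranded mRNA libraries and sequenced them single-end. They mapped the reads with TopHat 2.0.13, using Bowtie 2 2.2.3 and SAMtools 0.1.19, to the dog build CanFam3.1. The deposited FPKM values come from Cuffnorm 2.2.1. The annotation, the strand setting and the scaling method are not given in the sources used here, and neither is the number of reads, so no interval or detection floor was computed.

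Ratios of 50-cm over 2-cm FPKM used the deposited values with nothing added, and were counted above 1 FPKM in both cultures at 2-fold and 1.5-fold. With 1 sample per group there was no test. Each log2 ratio was set beside the 500 features nearest in mean log2 FPKM and their scaled median absolute deviation. Symbols absent from the files were looked up by gene ID in RefSeq's table for the assembly UU_Cfam_GSD_1.0. Because the build differs, its coordinates were used only to order genes and find the neighbours of the Notch genes. The Notch genes and lists were chosen with earlier results of these data known. Named were all Notch genes with a row and, in each role group, the genes past 1.5-fold or otherwise the highest and lowest ratio. Some other genes are marked as named after their values had been seen. Further genes outside this rule carry no such mark, among them NOTCH4, DLL3, LFNG, SOX9, NOX1 and EPHB3. The markers named beside the Notch genes were taken from lists written with the others, to check the cell type. Alternatives were other FPKM minima, pseudocounts of 0.1 and 1, recentring, quantile normalization and, chosen after seeing the data, matching by symbol only. The scripts were tested on simulated data. The software was Python 3.11.15 with pandas 2.3.3, numpy 2.4.6 and, for the plots, matplotlib 3.10.9.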

Additional observations from a re-analysis of the deposited data

How the results depend on the processing

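Counts depended on the FPKM minimum. With a minimum above 0 or above 0.1 FPKM, 1 Notch gene, NOTCH3, was past 2-fold and the same 1 past 1.5-fold, because the lower minimum admits it. Pathway genes past 2-fold came to 5 of 64 above 0 FPKM (8.5% of all features there), 4 of 62 above 0.1 FPKM (5.5%) and 2 of 59 where 1 FPKM was required in at least one culture (3.09%). Those past 1.5-fold came to 12 of 64 above 0 FPKM (18.0%), 11 of 62 above 0.1 FPKM (14.3%) and 4 of 45 above 5 FPKM (3.84%), since these minima admit or remove genes. Quantile normalization put 1 Notch gene, JAG2, past 1.5-fold and 5 of 6 above 0, with a median log2 ratio of 0.118. The shares of all features were not computed under that scaling, so these counts have none beside them. Quantile normalization raised the log2 ratios of features with a mean between 1 and 10 FPKM by a median of 0.11. Over all features above 1 FPKM the median shift was -0.01. No other count or median moved past its limit (1.5 times for a count, 0.1 on the log2 scale for a median). Among single Notch genes, the alternatives spanned -1.99 to -0.56 for NOTCH3, -0.45 to -0.15 for HEY1 and 0.08 to 0.44 for NRARP. No paired analysis was possible because each group has 1 sample, and no replicate could be left out. Read numbers were not given, so the error that depth puts on a value is not known.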

Other observations

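Markers of the collecting duct cell types between which Notch is known to choose were looked at beside the pathway, as values only. Of 8 principal cell markers, AQP2, AQP4 and SCNN1G were listed at 0 in both cultures. AQP3, a water and glycerol channel, had 3.63 FPKM in the 2-cm culture and 2.53 FPKM in the 50-cm culture (ratio 0.697), and SCNN1A, the alpha subunit of the epithelial sodium channel, had 3.02 and 2.02 FPKM (0.669). The vasopressin receptor gene AVPR2 had 1.83 and 1.85 FPKM. Of 8 intercalated cell markers, 5 were listed at 0 in both, among them FOXI1, which specifies that cell type, and only ATP6V1B1, a proton pump subunit, was above 1 FPKM, with 43.5 and 43.1 FPKM.

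Notch is also known to hold back multiciliated cells, for which 6 markers were listed. MCIDAS, a switch for that cell type, had 0.478 FPKM in the 2-cm culture and 0.0583 FPKM in the 50-cm culture, the ratio of 9 reads to 1 or a multiple, and FOXJ1 had 1.03 and 0.584 FPKM (ratio 0.565). TEKT1 had 0.468 and 0.400 FPKM (0.854), CCNO had 0.216 and 0.237 FPKM (1.10), and GMNC and RSPH1 were listed at 0 in both. Only 1 of the 500 features nearest to MCIDAS had a lower ratio. All of these values lie at or below about 1 FPKM.

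In RefSeq's gene order, EPHX3, next to NOTCH3, had 2.75 FPKM in the 2-cm culture and 2.25 FPKM in the 50-cm culture (ratio 0.816). EGFL7, which lies next to NOTCH1 and encodes a secreted protein reported to bind Notch, had 20.2 FPKM in the 2-cm culture and 10.7 FPKM in the 50-cm culture (ratio 0.532), whereas NOTCH1 itself was at 0.942. EGFL7 was picked out after its value had been seen, and 5.06% of all features above 1 FPKM were past 1.5-fold lower.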
